A study of Mus musculus with 12 samples.

Results

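Canonical Wnt signalling was followed in the adult nucleus accumbens through 10 genes of the pathway: Dkk3, Lrp6, Dvl1, Dvl2, Dvl3, Apc, Gsk3b, Axin2, Ctnnb1 and Lef1. The list was chosen with earlier results of these data known. A gene counted as measured when a row of the array table carried its symbol and no other, which held for 9 of the 10, each with a single such row. Dvl2 had no such row and is not described. The 9 genes stand among 18820 different symbols on the array.

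The arrays came from C57BL/6N offspring killed at 12 weeks of age after behavioural testing. Their mothers had received an intravenous injection on gestation day 17, either saline (controls) or poly(I:C) at 5 mg/kg, a double-stranded RNA made to imitate viral genetic material. There were 6 arrays in each group, from micro-dissected accumbens with core and shell together. The titles call the arrays biological replicates, but their litter and sex are unknown here, so any litter mates were counted as independent animals.

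In the canonical pathway a secreted Wnt protein binds a Frizzled receptor together with the co-receptor Lrp6, and Dishevelled proteins (Dvl1, Dvl2, Dvl3) pass the signal on. Without a signal, a destruction complex built on Apc and Axin, with the kinase Gsk3b, marks β-catenin (Ctnnb1) for breakdown; with a signal, β-catenin accumulates and joins Tcf and Lef factors on DNA. Axin2 and Lef1 are themselves well-known transcriptional targets, so their transcripts are often read as an output of the pathway. In the adult brain the pathway has been tied to synapse maintenance, to the blood-brain barrier and, through Gsk3b, to the action of lithium.

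The sequences before the start sites of 3 of the genes are shown because Axin2 and Lef1 are the pathway's own targets and Dvl1 had the smallest p-value of the group. Each run is the 250 bases before a RefSeq start in build GRCm38.p6, on the plus strand, at chr11:108920099-108920348 for Axin2, chr3:131110047-131110296 for the most upstream Lef1 start and chr4:155847152-155847401 for Dvl1. Capitals mark CTTTG, the core of the Tcf/Lef recognition sequence, read on either strand (CAAAG on the other).
Axin2: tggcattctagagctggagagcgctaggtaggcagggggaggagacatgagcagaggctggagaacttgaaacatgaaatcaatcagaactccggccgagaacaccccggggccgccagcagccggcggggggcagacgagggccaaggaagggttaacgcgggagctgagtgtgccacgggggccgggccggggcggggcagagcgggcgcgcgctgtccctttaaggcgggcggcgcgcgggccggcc
Lef1: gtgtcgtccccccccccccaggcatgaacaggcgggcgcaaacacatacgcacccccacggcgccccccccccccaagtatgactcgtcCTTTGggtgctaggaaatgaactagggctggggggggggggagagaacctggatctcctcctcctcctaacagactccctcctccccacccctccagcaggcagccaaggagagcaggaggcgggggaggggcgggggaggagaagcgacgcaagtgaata
Dvl1: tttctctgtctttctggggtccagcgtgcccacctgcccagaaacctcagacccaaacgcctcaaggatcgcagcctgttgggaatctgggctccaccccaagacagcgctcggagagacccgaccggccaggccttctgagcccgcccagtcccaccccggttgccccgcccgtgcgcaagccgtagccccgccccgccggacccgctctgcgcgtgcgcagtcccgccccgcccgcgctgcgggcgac
The Lef1 window shown held 1 core, at position -161 from the start and followed by G, and the Axin2 and Dvl1 windows held 0. Windows of later Lef1 starts, not shown, held 2, 1 and 3 cores, and the nearest of them overlaps the window shown. The farthest held 2 CTTTGA and 1 CTTTGT, longer forms present in 13.8% and 16.5% of all windows. The core is short and was present in 48.6% of all 32851 such windows in the table, so a match describes the letters only. RefSeq windows were at hand for 6 of the 9 measured genes. The windows shown were rich in G and C, with 69.2% for Axin2, 66.4% for Lef1 and 71.2% for Dvl1, against a median of 52.4% over all windows.

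None of the 9 genes passed the test between the groups after adjustment over all genes. By limma with Benjamini-Hochberg adjustment over 21218 probes, 0 of 9 passed an adjusted p of 0.05, where 0.0613% of all tested probes did (0.0283% higher and 0.033% lower). An unadjusted p under 0.05 was reached by 3 of 9, Dvl1 and Dkk3 with higher values and Lef1 with lower values in poly(I:C) offspring, where 14.4% of all tested probes reached it (7.83% higher and 6.57% lower). All 9 genes lay at or above the median level of the tested probes (5.47), and among the 10609 probes at or above that level the share was 19.8%. The group ranges overlapped for each of the 9, where 1.13% of all tested probes had ranges that did not overlap. In value 6 genes were higher and 3 lower, where 50.9% of all tested probes were higher, with a median difference of 0.03 on the log2 scale against 0.00 for all tested probes (0.02 for probes at or above the median level). Levels and differences are log2 values throughout, differences are poly(I:C) minus control, and each interval covers 95% by the limma fit.

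**Figure D1:**
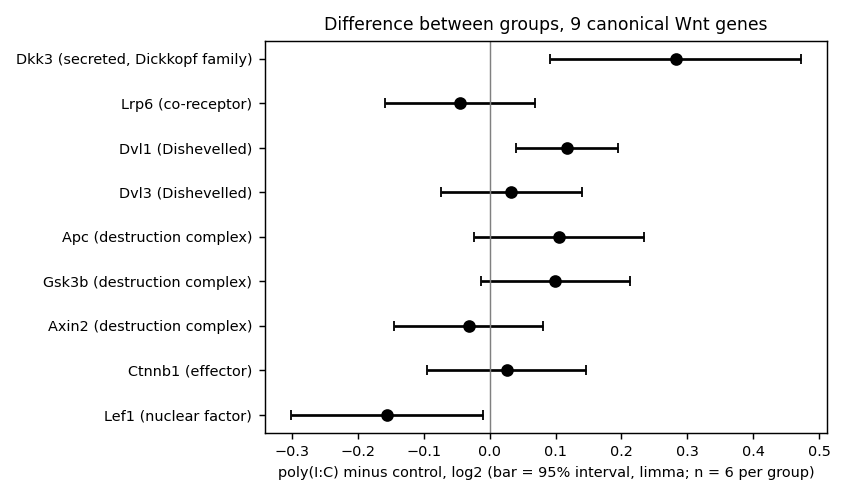
Difference between poly(I:C) and control arrays (log2, horizontal axis) for the 9 measured genes ordered by role, with bars for the 95% interval from limma (6 arrays per group). The intervals of Dkk3, Dvl1 and Lef1 leave out 0, and those of the other 6 genes include it; none passed after adjustment.

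Dkk3 had the widest difference of the 9. It encodes a divergent, secreted member of the Dickkopf family, in which some other members block the Lrp co-receptors. Control arrays ran from 6.68 through a median of 6.83 to 6.98, and poly(I:C) arrays from 6.87 through 7.06 to 7.47. Of the poly(I:C) arrays 4 lay above all controls, led by poly(I:C) 4 at 7.47 and poly(I:C) 2 at 7.28, whereas poly(I:C) 5 and 6 lay at 6.87 and 6.91, below control 3. The group values were 6.83 ± 0.09 and 7.11 ± 0.23 (SD, n = 6 each), a log2 difference of 0.28 (interval 0.09 to 0.47) or 1.22-fold. The unadjusted limma p was 0.00687 and the adjusted p 0.187, and an exact permutation test over the 924 splits of the arrays gave an unadjusted two-sided p of 0.0130. Without poly(I:C) 4 the difference was 0.21.

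Across all 12 arrays Dkk3 values went with those of cortical marker genes and, by rank, against those of choroid-ependymal and oligodendrocyte genes. In bulk tissue fewer cells of a type and less RNA per cell cannot be told apart. Of 11 cortical glutamatergic neuron genes outside the Wnt lists 10 were measured, and 8 of them had higher values in poly(I:C) offspring. Of the 8, 6 reached an unadjusted limma p under 0.05, where 7.83% of all tested probes were higher at that threshold. Rspo1, on the same marker list but left out as a Wnt gene, went the other way, with a difference of -0.18. The mean level of the 10 was 6.13 ± 0.38 (controls) and 6.59 ± 0.29 (poly(I:C)), and their summed linear signal ran from 738 to 1830 and from 1027 to 1965. No marker was at 0, since the values have no zero. Slc17a7, the vesicular glutamate transporter that defines these cells, ran from 5.23 to 9.41 in controls and from 7.68 to 9.50 in the poly(I:C) group.

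Across the 12 arrays Pearson's r between the cortical mean and Dkk3 was 0.771 (permutation p = 0.00159, adjusted over 72 relations p = 0.114) and Spearman's rho was 0.811 (permutation p = 0.00219, adjusted p = 0.0557). Without the arrays farthest from the median of the cortical mean, control 6 and poly(I:C) 4, r was 0.697. Within the poly(I:C) group r was 0.910 and within the controls 0.384, where control 1 had a high cortical mean (6.80) and an ordinary Dkk3 value (6.84). With the cortical mean in the model as a covariate, an alternative chosen after seeing the data, the Dkk3 difference was 0.13 (limma adjusted p = 0.631), and with cortical, septal-thalamic and choroid-ependymal means together it was also 0.13 (adjusted p = 0.610).

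With the choroid-ependymal mean, Dkk3 had a Spearman's rho of -0.839 (permutation p = 0.00112, adjusted p = 0.0557), larger in size than that with the cortical mean. Pearson's r was -0.459 (permutation p = 0.120, adjusted p = 0.385) and -0.566 without controls 4 and 6. Within the controls r was -0.151 and within the poly(I:C) group -0.741, and after each group's mean was taken out it was -0.146. With the oligodendrocyte mean rho was -0.783 (permutation p = 0.00383, adjusted p = 0.0689) and r was -0.588 (permutation p = 0.0395, adjusted p = 0.353), or -0.605 without controls 2 and 6. That r was -0.396 within the controls, -0.152 within the poly(I:C) group and -0.18 after each group's mean was taken out. None of these relations passed after adjustment over the 72. The part of oligodendrocytes in the Dkk3 values was not tested.

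The co-receptor gene Lrp6 showed little separation. Controls ran from 7.01 through a median of 7.22 to 7.31 and poly(I:C) arrays from 7.09 through 7.13 to 7.25. Controls 3, 5 and 6 lay above all poly(I:C) arrays and control 1 below all of them. The group values were 7.20 ± 0.12 and 7.16 ± 0.07, a log2 difference of -0.04 (interval -0.16 to 0.07 and limma adjusted p = 0.744). The sign turned to 0.02 with either set of marker means as covariates.

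Among the Dishevelled genes, Dvl1 had the narrower spread and the larger difference. Its controls ran from 6.93 through a median of 6.97 to 7.09 and its poly(I:C) arrays from 7.04 through 7.12 to 7.16. The groups overlapped because control 2, at 7.09, lay among the poly(I:C) arrays, while 5 of 6 controls lay below all poly(I:C) arrays. The group values were 6.99 ± 0.06 and 7.11 ± 0.04, a log2 difference of 0.12 (interval 0.04 to 0.19) or 1.08-fold, with an unadjusted limma p of 0.00594, an adjusted p of 0.178 and an exact permutation p of 0.00866. An unadjusted p at or below that of Dvl1 was reached by 3.33% of all tested probes. The difference was 0.08 with the 3 marker means as covariates (limma adjusted p = 0.592). Across the 12 arrays Dvl1 had a Pearson's r of -0.633 with the choroid-ependymal mean (permutation p = 0.0174), or -0.107 without controls 4 and 6. With the oligodendrocyte mean r was -0.592 (permutation p = 0.0424) and with the cortical mean 0.589 (permutation p = 0.0476). None passed after adjustment over the 72 relations. After each group's mean was taken out, r was -0.385, -0.024 and 0.253 in that order.

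Dvl3, its paralogue, overlapped broadly between the groups. Controls ran from 8.12 through a median of 8.27 to 8.36 and poly(I:C) arrays from 8.16 through 8.30 to 8.39. The log2 difference was 0.03 (8.26 ± 0.09 against 8.30 ± 0.08, interval -0.07 to 0.14 and limma adjusted p = 0.810). Whether Dvl1 and Dvl3 responded unequally was not tested, and their intervals overlap.

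**Figure D2:**
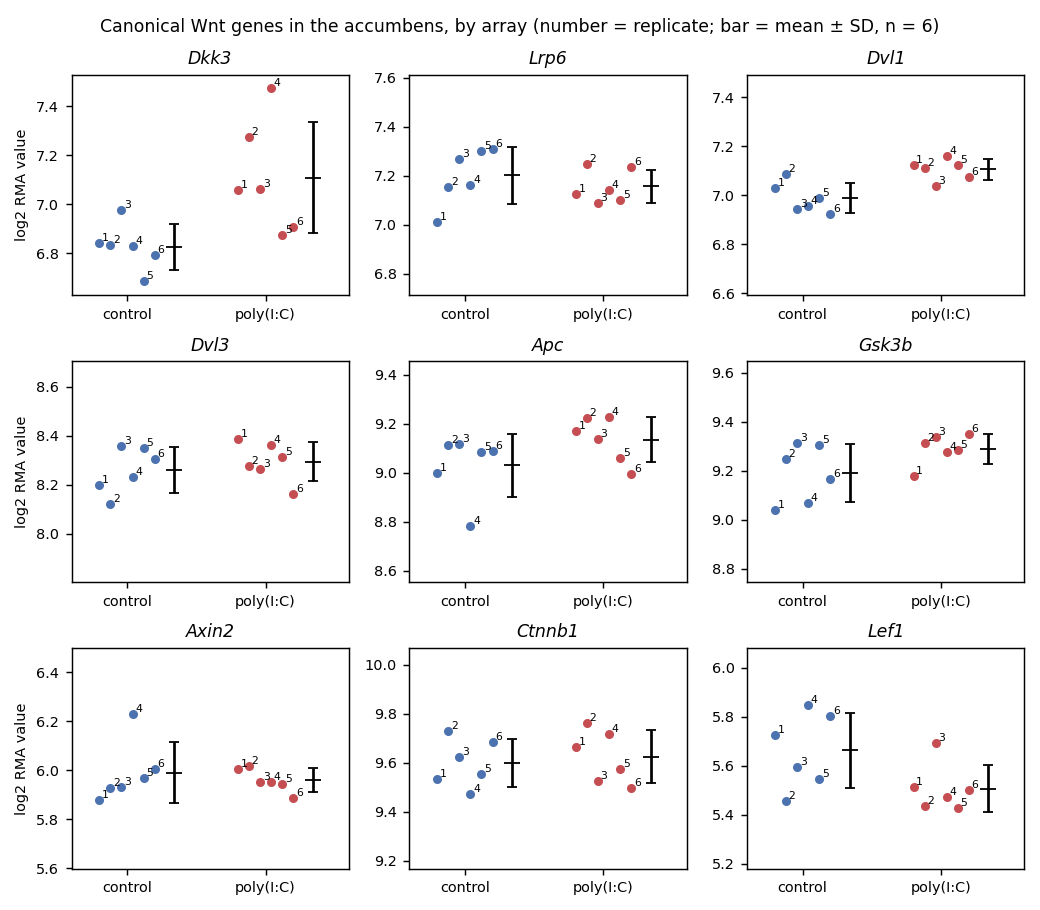
Log2 RMA values (vertical axis, the same span of 0.9 in each panel) of the 9 genes in each array, with the replicate number beside each point and the mean ± SD of 6 arrays as a bar. Poly(I:C) 4 and 2 stand high for Dkk3, 5 of 6 controls lie below the poly(I:C) arrays for Dvl1, and control 4 stands apart for Apc and Axin2.

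Of the destruction complex, the scaffold gene Apc and the kinase gene Gsk3b were both higher in value without passing. Apc ran from 8.78 through a median of 9.09 to 9.12 in controls and from 9.00 through 9.15 to 9.23 in the poly(I:C) group, and 4 poly(I:C) arrays lay above all controls. Control 4 stood alone at 8.78. The log2 difference of Apc was 0.10 (9.03 ± 0.13 against 9.14 ± 0.09, interval -0.02 to 0.23 and limma adjusted p = 0.450), and it was 0.06 without control 4 and 0.02 with the 3 marker means as covariates.

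Gsk3b, whose product phosphorylates β-catenin, ran from 9.04 through a median of 9.21 to 9.31 in controls and from 9.18 through 9.30 to 9.35 in the poly(I:C) group. Controls 1, 4 and 6 lay below all poly(I:C) arrays. The log2 difference was 0.10 (9.19 ± 0.12 against 9.29 ± 0.06, interval -0.01 to 0.21 and limma adjusted p = 0.409). With the 3 marker means as covariates it was also 0.10, but it was 0.06 with array weights and 0.06 without controls 4 and 6.

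Axin2, a scaffold of the same complex and a feedback target, had group values close together. Controls ran from 5.88 through a median of 5.95 to 6.23 and poly(I:C) arrays from 5.89 through 5.95 to 6.02. A single array, control 4 at 6.23, lay outside the narrow band of the others. The log2 difference was -0.03 (5.99 ± 0.12 against 5.96 ± 0.05, interval -0.14 to 0.08 and limma adjusted p = 0.835), and without control 4 it was 0.02. The interval leaves out differences larger than 0.14 in size.

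β-catenin itself, Ctnnb1, also overlapped broadly. Controls ran from 9.47 through a median of 9.59 to 9.73 and poly(I:C) arrays from 9.50 through 9.62 to 9.76. The log2 difference was 0.03 (9.60 ± 0.10 against 9.62 ± 0.11, interval -0.09 to 0.15 and limma adjusted p = 0.880). Arrays measure the transcript, and the pathway controls β-catenin mainly through the stability of the protein, which was not measured.

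Lef1, the nuclear partner of β-catenin, was the gene with the largest difference towards lower values. Controls ran from 5.46 through a median of 5.66 to 5.85 and poly(I:C) arrays from 5.43 through 5.49 to 5.69. Controls 1, 4 and 6 lay above all poly(I:C) arrays, control 2 (5.46) lay among the low ones, and poly(I:C) 3 (5.69) lay among the high ones. The group values were 5.66 ± 0.15 and 5.51 ± 0.10, a log2 difference of -0.16 (interval -0.30 to -0.01) or 0.897-fold, with an unadjusted limma p of 0.0378, an adjusted p of 0.317 and an exact permutation p of 0.0671. Both Lef1 means lay near the median level of the tested probes (5.47).

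Controls 4 and 6, which had the highest Lef1 values, were also the arrays with the highest levels of choroid plexus and ependymal genes. Of 11 such genes outside the Wnt lists 10 were measured, and all 10 had lower values in poly(I:C) offspring. An unadjusted p under 0.05 was reached by 4 of them, against 6.57% of all tested probes in that direction. The mean level of the 10 was 6.31 and 7.01 in controls 4 and 6 and from 4.88 to 5.48 in the other controls. In poly(I:C) offspring it ran from 4.74 to 4.98. The summed linear signal was 326 to 3058 in controls and 285 to 377 in the poly(I:C) group. Across the 12 arrays Lef1 and the choroid-ependymal mean had a Pearson's r of 0.652 (permutation p = 0.0214, adjusted over 72 relations p = 0.274). Spearman's rho was 0.322 (permutation p = 0.308, adjusted p = 0.740), and r was -0.291 without controls 4 and 6. Control 1 had a Lef1 value of 5.73 and the lowest mean of the controls, 4.88. Without controls 4 and 6 the Lef1 difference was -0.07 (limma adjusted p = 0.786), while that of Dkk3 was 0.28 (adjusted p = 0.511) and that of Dvl1 0.09 (adjusted p = 0.566). Leaving out the controls highest for Lef1 narrows its difference in any case.

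In the wider pathway no gene passed the test with all arrays. Of 108 further genes of Wnt signalling 104 were measured, and 0 passed the adjusted threshold. By unadjusted p 12 lay under 0.05, 6 higher and 6 lower in value, against 14.4% of all tested probes. In value 55 were higher and 49 lower, with a median difference of 0.01. At or above the median level of all tested probes were 50 of the 104, but 4 of the 21 ligand and release genes and 2 of the 17 secreted modulators.

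Among 21 genes of Wnt ligands and their release, 0 passed, and 2 higher and 1 lower reached an unadjusted p under 0.05. The ligand gene Wnt2 ran from 5.46 through a median of 5.54 to 5.96 in controls and from 5.81 through 5.98 to 6.15 in the poly(I:C) group. Control 3, at 5.96, was the only control within the poly(I:C) range. The log2 difference was 0.36 (5.61 ± 0.20 against 5.98 ± 0.15, interval 0.17 to 0.56 and limma adjusted p = 0.115), and without control 3 it was 0.43 (adjusted p = 0.0369). It was the single pathway gene to pass in any of the 23 refits, and with the 3 marker means as covariates it was at 0.34. Porcn, the acyltransferase that attaches the lipid that Wnt proteins need for release, had a difference of 0.23 (adjusted p = 0.190), which was 0.05 with the 3 marker means and 0.07 with the cortical mean as covariates. Wnt3, another ligand gene, had one of -0.09 (adjusted p = 0.293).

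The 17 secreted modulators gave 1 gene with an unadjusted p under 0.05, Rspo1, an R-spondin that strengthens Wnt signals, at -0.18 (limma adjusted p = 0.347). That difference was 0.01 with the 3 marker means and -0.02 with the cortical mean as covariates. Sfrp5, a decoy for Wnt ligands, and Dkk4, an inhibitor of the Dickkopf family, were at -0.12 and -0.11 (adjusted p = 0.357 each). Of 21 receptor genes 1 had an unadjusted p under 0.05. That was Ror1, a receptor of the non-canonical branch, which ran from 5.29 through a median of 5.38 to 5.61 in controls and from 4.79 through 5.04 to 5.48 in the poly(I:C) group, with a log2 difference of -0.30 (interval -0.52 to -0.09 and limma adjusted p = 0.206). The poly(I:C) arrays were spread more widely than the controls, and poly(I:C) 3 and 6, at 5.33 and 5.48, lay within the control range. Fzd7, a Frizzled receptor, was at -0.14 and Ror2 at -0.07. The Fzd7 difference was -0.07 without control 6 and 0.02 with the 3 marker means as covariates.

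Of 20 measured genes of the destruction complex and its regulators 3 had an unadjusted p under 0.05. Btrc, the ubiquitin ligase subunit that recognises phosphorylated β-catenin, ran from 9.22 through a median of 9.24 to 9.35 in controls and from 9.31 through 9.38 to 9.43 in the poly(I:C) group, with a log2 difference of 0.12 (interval 0.04 to 0.19 and limma adjusted p = 0.176). Control 5, at 9.35, was the only control within the poly(I:C) range. Dact3, which encodes a Dishevelled-binding protein, was at 0.21 (adjusted p = 0.211), and the scaffold gene Amer1 was at -0.09 (adjusted p = 0.311). With the 3 marker means as covariates the Dact3 difference was 0.04.

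Among 17 measured nuclear factors Tcf7l2, a relative of Lef1, had the largest difference. Controls ran from 6.04 through a median of 6.35 to 7.07 and poly(I:C) arrays from 5.90 through 6.04 to 6.21, a log2 difference of -0.42 (interval -0.73 to -0.11 and limma adjusted p = 0.218). Controls 6 and 2, at 7.07 and 6.79, stood highest. Tcf7l2 marks thalamic neurons and is also made in the oligodendrocyte lineage. The mean of 11 septal and thalamic genes without it was highest in the same controls, at 7.03 and 6.85. In poly(I:C) offspring 8 of the 11 were lower and 3 higher in value, where 50.9% of all tested probes were higher. Only 1 lower and 1 higher gene reached an unadjusted limma p under 0.05, against 6.57% and 7.83% of all tested probes. Their summed linear signal was 962 to 2220 in controls and 919 to 1564 in the poly(I:C) group. All 11 measured oligodendrocyte genes were also lower in value, 10 of them with an unadjusted p under 0.05 and 3 with groups that did not overlap. Of all tested probes 6.57% were lower at that p and 1.13% had groups that did not overlap. Among the oligodendrocyte genes Mobp, a myelin gene, fell by 0.51 on the log2 scale and passed the adjusted threshold (limma adjusted p = 0.0411). No tested probe passed with the replicate block, with all rows tested, or without any 1 of controls 4, 5 and 6. The oligodendrocyte list had a mean level of 8.28 ± 0.23 in controls and 7.92 ± 0.06 in the poly(I:C) group and a summed linear signal of 3143 to 4640 and 2899 to 3310. With the cortical, septal-thalamic and choroid-ependymal means as covariates the Tcf7l2 difference was -0.19 (limma adjusted p = 0.551). The part of oligodendrocytes in it was not tested.

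The co-activator genes Pygo2 and Crebbp were at 0.15 and 0.08 (limma adjusted p = 0.176 and 0.317). Of 8 measured genes listed as targets 1 had an unadjusted p under 0.05. Nfatc1, a transcription factor gene, was the 1 pathway gene of 104 whose groups did not overlap, near the share of 1.13% over all tested probes. Its controls ran from 4.607 to 4.748 and its poly(I:C) arrays from 4.515 to 4.605, with a log2 difference of -0.11 (limma adjusted p = 0.159). Its level lay below the median of all tested probes. Apcdd1, which encodes a membrane inhibitor of Wnt signals, was at 0.12 and Cdx1 at 0.10, both with unadjusted p-values above 0.05. The Apcdd1 difference was 0.00 with either set of covariates.

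**Figure D3:**
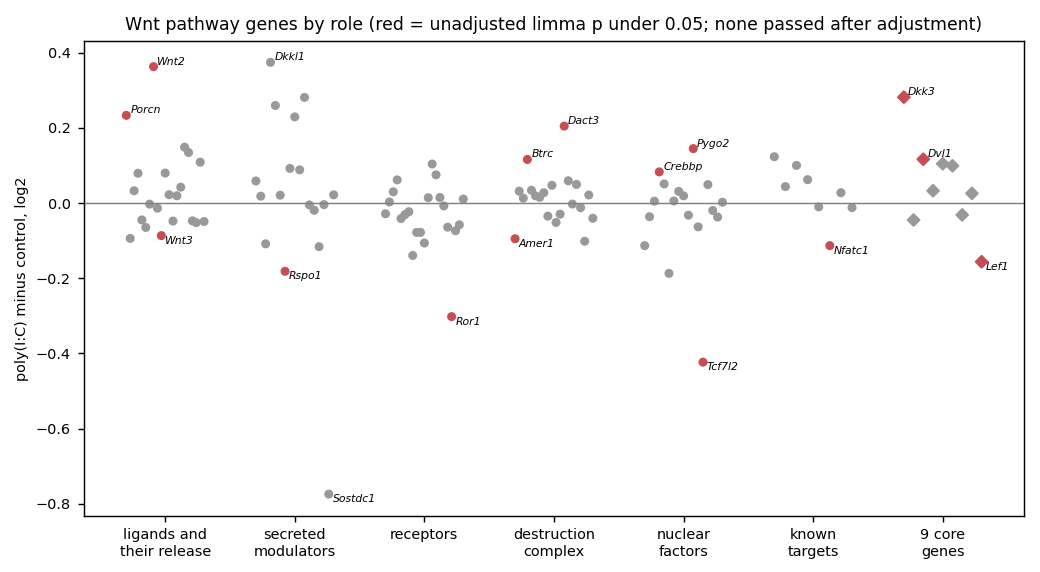
Difference between poly(I:C) and control arrays (log2, vertical axis) for 104 further Wnt pathway genes in 6 role groups and for the 9 core genes (diamonds), 1 point per gene. Red points have an unadjusted limma p under 0.05 (12 of 104 and 3 of 9), they lie on both sides of 0, and none passed after adjustment; Sostdc1, a secreted modulator also made in choroid plexus, has the lowest value at -0.77.

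The 9 genes were also compared with each other across the 12 arrays, in 36 pairs. Ctnnb1 and Apc went together, with a Pearson's r of 0.774 (permutation p = 0.00093, adjusted over the 36 pairs p = 0.0335) and a Spearman's rho of 0.734 (permutation p = 0.00887, adjusted p = 0.127). Pearson's r was 0.787 within controls, 0.876 within poly(I:C) arrays, and 0.688 without control 4 and poly(I:C) 2, the arrays farthest from the median of Ctnnb1. Their products meet in the destruction complex. All arrays share a normalization, and astrocyte genes went with Ctnnb1. The mean of 12 astrocyte genes had an r of 0.775 with Ctnnb1 (permutation p = 0.00368, adjusted over 72 relations p = 0.132; rho 0.804, permutation p = 0.00232, adjusted p = 0.0557; 0.608 without control 4 and poly(I:C) 6). The astrocyte mean itself lay at 8.21 ± 0.15 (controls) and 8.23 ± 0.12 (poly(I:C)).

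Dvl1 and Lef1 went in opposite directions. Their r was -0.784 (permutation p = 0.00329, adjusted p = 0.0592) and their rho -0.811 (permutation p = 0.0024, adjusted p = 0.0864). The sign held within controls (-0.636) and within poly(I:C) arrays (-0.768), and r was -0.800 without controls 3 and 6, the arrays farthest from the median of Dvl1. Axin2 and Lef1, both targets of the pathway, had an r of 0.472 (permutation p = 0.113, adjusted p = 0.340) and a rho of 0.189 (permutation p = 0.557, adjusted p = 0.794), and without controls 1 and 4, the arrays farthest from the median of Axin2, r was 0.210. Without control 4 alone r was -0.058. Within the controls r was 0.613 and within the poly(I:C) arrays -0.144, so the sign of that relation depended on which arrays were included.

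**Figure D4:**
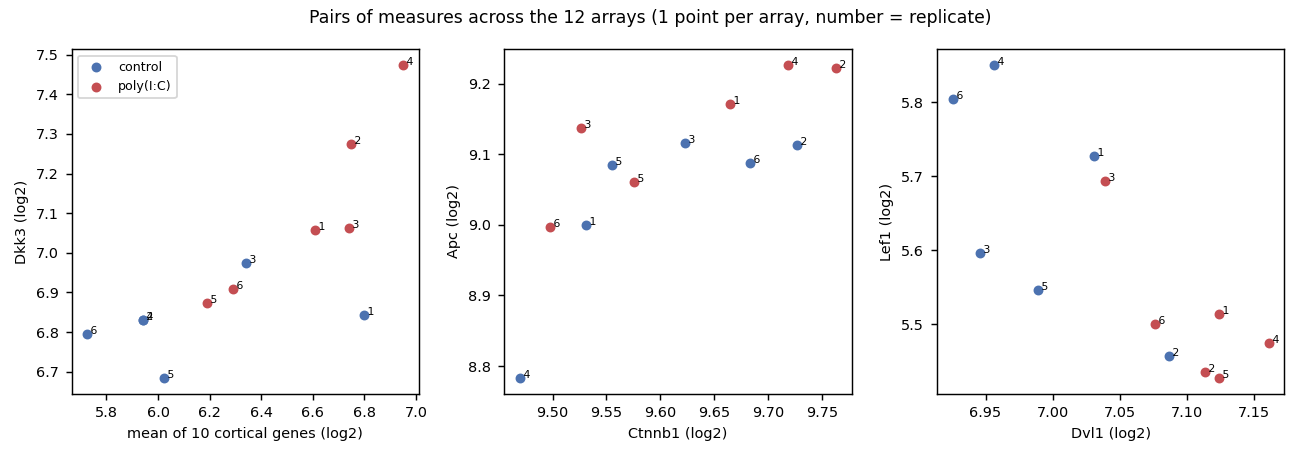
Pairs of log2 measures across the 12 arrays, 1 point per array with its replicate number: Dkk3 against the mean of 10 cortical genes (r = 0.771), Apc against Ctnnb1 (r = 0.774) and Lef1 against Dvl1 (r = -0.784). Control 1 lies off the Dkk3 trend with a high cortical mean, and control 4 is lowest for both Ctnnb1 and Apc.

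Genes with the most similar profile were sought for Dvl1, which had the smallest p, and for Dkk3, which had the largest SD over the arrays, among 9326 genes at or above the median level. For Dkk3 these were Ddx54 (Pearson's r 0.954 over 12 arrays), Cacng8 (0.941), Neurl4 (0.940), Septin11 (0.935) and Galnt9 (0.924). Cacng8 encodes a subunit associated with AMPA receptors and Ddx54 an RNA helicase. After each group's mean was taken out, r stayed between 0.869 and 0.917 for these 5. For Dvl1 they were Heatr1 (0.878), Pank4 (0.858), Inpp1 (0.850), Agrn (0.848) and Gapdh (0.846), and after removal of the group means r was between 0.566 and 0.752. These are the highest of 9326 values for each gene and are given as a description only.

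Medium spiny neurons are the main neurons of the accumbens, and 10 of their marker genes were measured. All 10 lay at or above the median level on average, with 9.08 ± 0.20 as the control mean and 9.14 ± 0.14 as the poly(I:C) mean. In value 6 were higher and 4 lower. Only Pdyn reached an unadjusted limma p under 0.05, with a difference of 0.32 (adjusted p = 0.237), where 7.83% of all tested probes were higher at that p. The site of dissection was not tested. Genes of endothelial cells, in which Wnt signals maintain the blood-brain barrier, had a mean of 6.44 ± 0.08 and 6.42 ± 0.04. Microglial genes had a mean of 6.27 ± 0.07 and 6.23 ± 0.07, with 3 of 11 higher and 8 lower in value. Of these, 2 were lower at an unadjusted limma p under 0.05, against 6.57% of all tested probes. They were Tyrobp at -0.19 (adjusted p = 0.132) and C1qa at -0.16 (adjusted p = 0.148).

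Over the 12 fits that left out 1 array, Dkk3 ran from 0.21 to 0.33, Dvl1 from 0.10 to 0.14, Gsk3b from 0.07 to 0.12, Apc from 0.06 to 0.13 and Lef1 from -0.20 to -0.12. An unadjusted limma p under 0.05 was kept in 22 of 23 refits for Dvl1, in 21 for Dkk3 and in 11 for Lef1. The lowest adjusted p in any of the 24 fits was 0.112 for Dkk3, 0.132 for Dvl1 and 0.257 for Lef1.

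**Figure D5:**
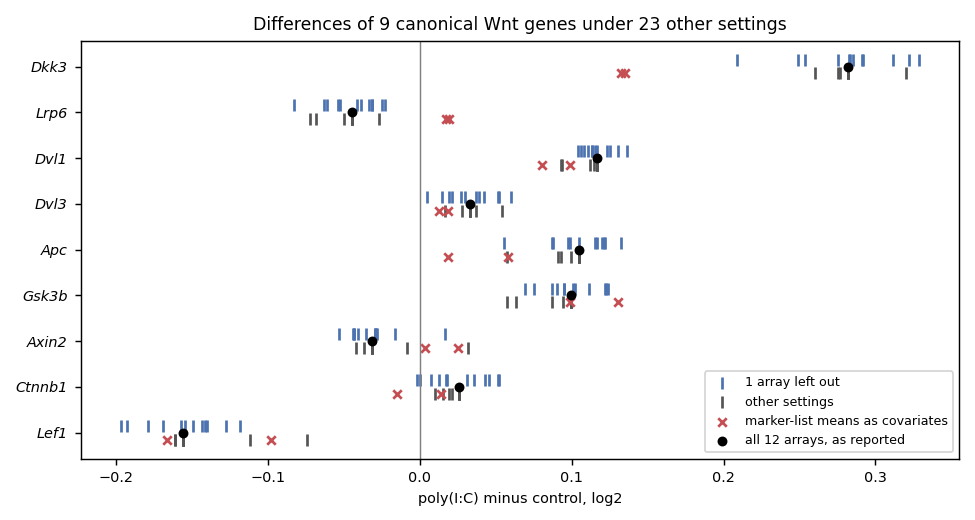
Difference between poly(I:C) and control arrays (log2, horizontal axis) of each of the 9 genes with all arrays (black), with 1 array left out (blue), with marker-list means as covariates (red crosses) and under the other settings (grey). Dkk3 lies near 0.13 with covariates against 0.28 without, Dvl1 stays between 0.08 and 0.14, and Lrp6, Axin2 and Ctnnb1 have values on both sides of 0.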

How the data were processed

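Total RNA of 12 accumbens samples was hybridised to Affymetrix Mouse Gene 1.1 ST strips. The authors deposited a table of 35556 rows of log2 values, made with RMA and Partek 6.6 per the submitters' processing notes; the sources used here name no RMA settings and no genome build, so the array's gene coordinates are left out. The log2 scale was read from the values (1.86 to 12.29, array medians 4.78 to 4.85). RMA brings the arrays to a common distribution, so a change shared by most genes would not show, and low values are compressed. The number of arrays limits the precision. Array correlations ran from 0.991 to 0.997, with 0 identical pairs.

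Rows with exactly 1 symbol in the platform annotation were tested (21218; 1881 rows had several symbols and 12457 had none). Of these, 21185 matched RefSeq by gene identifier. For a gene with several rows the row with the highest mean was used. Promoter windows came from RefSeq (GRCm38.p6).

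Each row was fitted in R 4.3.3 with limma 3.58.1 (lmFit, eBayes, default settings) with the group as the only term; tests were two-sided, adjusted over all 21218 rows, with a threshold of 0.05. On simulated data with 50 probes per size, the test recovered 72% of changes of 0.25, 96% of 0.5 and 100% of 1 or 2 (log2), with 13 false calls. The simulated noise was normal and independent between probes, and 200 probes were changed in all. Genes of the real arrays vary together, so these shares need not hold for them. Exact permutation tests used all 924 splits of the arrays, and correlations 100000 permutations. Genes are named by a rule: all members, up to 3 genes per pathway or marker list with the smallest unadjusted p, and 5 genes of similar profile for 2 members; Sostdc1, Slc17a7 as a defining marker, and the single arrays picked out were named after their values were seen. The members and lists were chosen with earlier results of these data known, so no list-wide test was made. Alternatives were other normalizations, a level filter, all rows, other variance models, array weights, the replicate number as a block, marker means as covariates, and arrays left out.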

Additional observations from a re-analysis of the deposited data

Results flagged for a closer look

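Of 70 groups of 6 arrays checked for a single outlying array (the 9 core genes, the named pathway genes and the marker means), 5 had a gap to the nearest array, as a share of the range, above Dixon's 95% critical value. Chance flags about 1 group in 20, so a few flags are usual among 70.

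Axin2 in control 4 was at 6.23 against 5.88 to 6.00 in the other controls (gap 0.645 of the range). Apc in the same array was at 8.78 against 9.00 to 9.12 (0.652), on the low side. Lef1 in poly(I:C) 3 was at 5.69 against 5.43 to 5.51 (0.677). Rspo1 in control 1 was at 5.71 against 6.07 to 6.18 (0.764), and Amer1 in poly(I:C) 6 was at 5.45 against 5.56 to 5.60 (0.697). Control 4 is also among the arrays with the highest mean of choroid plexus and ependymal genes; the part of that tissue in its Axin2 and Apc values was not tested.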

How the results depend on the processing

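Over 23 refits, 22 planned and 1 added after seeing the data (the cortical mean as the only covariate), 0 of the 9 genes passed the adjusted threshold in any. The count at an unadjusted p under 0.05 was 3; it was 0 with the 3 marker means as covariates and 1 with the cortical mean alone, 2 with array weights and without controls 4 and 6, 4 with the replicate block, and 2 to 4 with 1 array left out. For the 104 further pathway genes 12 reached it; 19 did with array weights, 6 among probes at or above the median level (where 50 were tested), and 9 to 21 with 1 array left out. Of them 0 passed after adjustment, and 0 to 1 did with 1 array left out (Wnt2 without control 3). Over all probes 13 passed; the count was 38 with quantile normalization, 20 among probes at or above the median level, 140 with array weights, 0 with the replicate block, 0 with all rows tested, 0 with either set of covariates, 0 without controls 4 and 6, and 0 to 84 with 1 array left out (84 without control 3, 54 without control 1, and 0 without any of controls 4, 5 and 6 or poly(I:C) 2, 3, 4 and 5).

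Some differences (log2) turned sign. With the 3 marker means as covariates Ctnnb1 was at -0.0150, Axin2 at 0.0249, Lrp6 at 0.0190, Rspo1 at 0.00737, Fzd7 at 0.0237 and Apcdd1 at -0.00073. With the cortical mean alone Axin2 was at 0.0036 and Lrp6 at 0.0168, and without controls 4 and 6 Axin2 was at 0.0317. With 1 array left out Ctnnb1 ran from -0.0018 (without poly(I:C) 2) to 0.0518 and Axin2 from -0.0534 to 0.0164 (without control 4). The cause was not tested. Same-numbered arrays did not pair: correlations of their deviations from the group means ran from -0.20 to 0.27, with 1 of 6 over 0.1. With the replicate block, a paired fit by title number, the adjusted limma p was 0.203 for Dkk3 and 0.263 for Dvl1. No member had another row, so the alternative with other rows was not run.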
